A study of Homo sapiens with 9 samples.

Results

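The Vestigial-like cofactors VGLL1, VGLL3 and VGLL4, the DNA-binding factors TEAD1, TEAD2, TEAD3 and TEAD4, and the coactivators YAP1 and WWTR1 (the gene of TAZ) form one transcriptional module and are described here. They were found by gene symbol among the 58051 genes counted, all 9 were found, and all 9 were among the 14513 genes that passed the filter on low counts. RNA was measured in A431, an epidermoid carcinoma line that carries endogenous mutant p53. The groups were A431 parental (mutp53) cells, A431 Ctrl (mutp53) cells, which received an empty-vector CRISPR construct, and A431 p53 KO cells, which received a CRISPR construct against p53, each with 3 libraries. All were grown as single colonies, plated in DMEM with 10% FBS and harvested after 48 hours. Whether the 3 libraries of a group came from 1 colony or from separate ones is not given, so p-values here measure the spread between these libraries, and each engineered line may stand for few clones.

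TEAD proteins bind DNA but need a partner to change transcription. YAP and TAZ are the best known partners, and the Hippo kinases (MST and LATS) keep both out of the nucleus and mark them for degradation. The VGLL proteins bind TEADs through a short Tondu motif on a surface that overlaps with the one used by YAP and TAZ, and VGLL4 is known as a repressor of YAP-TEAD transcription. In squamous epithelia, YAP, TAZ and TEADs sustain basal cell growth, and much of their regulation takes place on the proteins, which RNA counts do not measure.

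The promoter windows that set the strongest mover beside 2 other members were read from RefSeq (GRCh38.p14), as the 250 bases before each start, 5′ to 3′ on the gene's strand. Capitals mark the TEAD core, searched as GGAATG on both strands (CATTCC on the other). VGLL1 is shown because its level moved most, YAP1 because it encodes the partner that VGLL1 competes with and its window also holds the core, and VGLL3 because its level moved and its window holds no core.
VGLL1 chrX:136531965-136532214, plus strand: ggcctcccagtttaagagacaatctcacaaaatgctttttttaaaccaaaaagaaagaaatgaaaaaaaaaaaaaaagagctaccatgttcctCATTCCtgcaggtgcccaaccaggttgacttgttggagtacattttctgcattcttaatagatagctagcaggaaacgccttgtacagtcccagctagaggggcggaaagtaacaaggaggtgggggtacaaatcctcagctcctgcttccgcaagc
YAP1 chr11:102110197-102110446, plus strand: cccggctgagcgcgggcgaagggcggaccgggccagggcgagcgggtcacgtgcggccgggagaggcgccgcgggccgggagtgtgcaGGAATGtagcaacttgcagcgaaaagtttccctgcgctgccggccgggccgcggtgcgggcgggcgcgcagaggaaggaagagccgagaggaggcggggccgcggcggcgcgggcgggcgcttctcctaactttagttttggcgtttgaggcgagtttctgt
VGLL3 chr3:86991150-86991399, minus strand: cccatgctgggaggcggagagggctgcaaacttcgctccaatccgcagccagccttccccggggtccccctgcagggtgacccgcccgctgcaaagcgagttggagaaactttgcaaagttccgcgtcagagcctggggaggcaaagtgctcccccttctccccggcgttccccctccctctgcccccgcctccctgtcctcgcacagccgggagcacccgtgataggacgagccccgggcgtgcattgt
The match lay 157 bases before the start of VGLL1 and 162 bases before that of YAP1. Windows were listed for 7 of the 9 members, all but TEAD1 and TEAD4, and 2 of their 13 windows held the core, against 11.9% of all 35116 windows of this length. The AP-1 motif TGANTCA (both strands, in 6.57% of all windows) was in none of the 13. The p53 decamer motif, searched by name on both strands and present in 5.57% of all windows, was in 1 of the 5 windows of VGLL4. A match describes letters only and is not a bound site.

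Libraries held 19783778 to 29840452 counts on genes, and values are given as CPM, counts scaled to a common library size with TMM factors. Of the keratinocyte markers, KRT5 (441 to 690 CPM) and EGFR (8665 to 17320 CPM) were high, while KRT14, a keratin of basal keratinocytes, had 0 to 13 counts in any library. The markers PTPRC and CD3E of leukocytes and COL3A1 of fibroblasts had no count. The fibroblast markers COL1A1 and PDGFRB had 47 to 114 and 0 to 4 counts per library. The endothelial markers PECAM1 and CDH5 had 1 to 13 and 1 to 9. In bulk RNA, fewer cells of a type and less RNA per cell cannot be told apart.
Replicate 1 of Ctrl and replicate 3 of p53 KO stood apart from their groups by gene length and GC content. In Ctrl replicate 1 the median deviation from the group mean went from 0.17 on the log2 scale in the shortest of 5 equal groups of genes to -0.17 in the longest, and from -0.20 in the group of lowest GC content to 0.16 in the highest. In p53 KO replicate 3 the same medians went from 0.09 to -0.08 and from -0.09 to 0.11. Ctrl replicate 3 deviated by slightly more than that, in the opposite direction, from -0.10 to 0.12 and from 0.12 to -0.12, and was kept. Deviations are taken from the mean of the group, so those of Ctrl replicates 1 and 3 depend on each other. This bears on the genes described here, because VGLL3, TEAD1, YAP1 and WWTR1 have long exons (6311 to 12740 bases) with 37.4% to 43.5% GC, and VGLL1, TEAD2, TEAD3 and TEAD4 have short ones (1478 to 3049 bases) with 51.6% to 60.4% GC. In Ctrl replicate 1 those 4 long genes lay 0.40 to 0.72 below their group mean, and those 4 short genes 0.09 to 0.23 above it. The differences of the 9 members are therefore given with all 9 libraries and also without these 2. Fits that left out single libraries or removed the length and GC trend are given for some of them. The cause of these deviations was not tested.

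**Figure D1:**
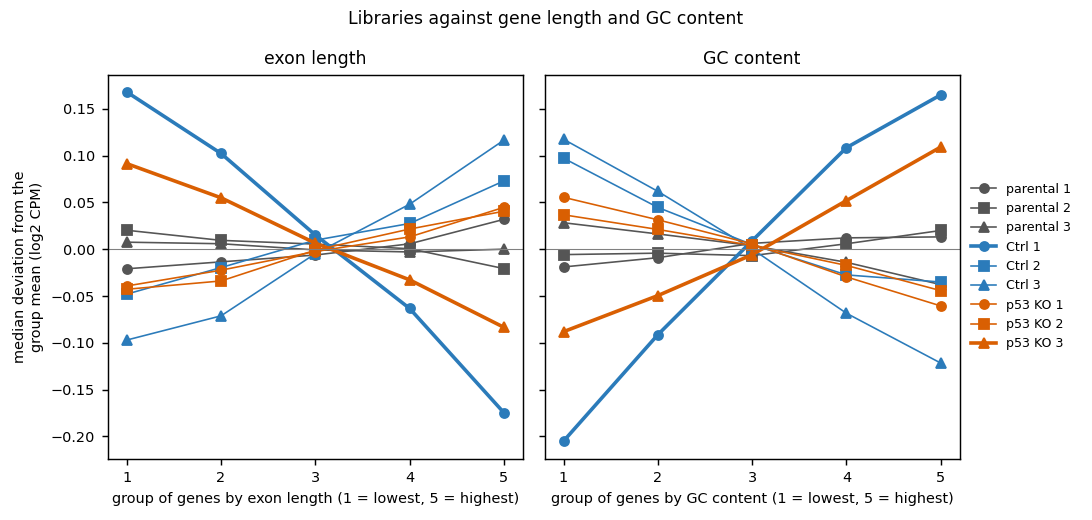
Median deviation of each library from its group mean (y axis, log2 CPM) over 5 equal groups of genes by exon length (left) and GC content (right), 1 line per library. Ctrl replicate 1 and p53 KO replicate 3 (thick lines) fall from short to long genes, from 0.17 to -0.17 and from 0.09 to -0.08, and rise from low to high GC. Ctrl replicate 3 goes the other way, from -0.10 to 0.12 over length.

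VGLL1 was the member that differed most between the groups. The gene (ENSG00000102243) lies on chromosome X from 136532215 to 136556807, plus strand. It had 31.9, 29.5 and 31.2 CPM in the parental libraries, 102, 86.8 and 73.2 CPM in the Ctrl libraries, and 11.6, 10.0 and 12.8 CPM in the p53 KO libraries. The 3 groups did not overlap, with parental cells between the other two. Of all genes tested, 10.1% had all 3 p53 KO libraries below all 6 others. The share of genes with 3 separate groups was not counted. The level in p53 KO cells was 0.371 times the parental level (log2 fold change -1.43, SE 0.13, edgeR adjusted p = 4.72e-05) and 0.131 times the Ctrl level (log2 fold change -2.93, SE 0.13, edgeR adjusted p = 1.32e-07). In Ctrl cells it was 2.82 times the parental level (log2 fold change 1.497, SE 0.12, edgeR adjusted p = 2.34e-05). Without the 2 libraries the log2 fold changes were -1.51, -2.88 and 1.37. The deviation of VGLL1 was positive in both of these libraries (0.23 and 0.16), as it was for other short genes. The decrease in p53 KO cells was therefore larger against Ctrl than against parental cells, in comparisons that share the p53 KO libraries.

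**Figure D2:**
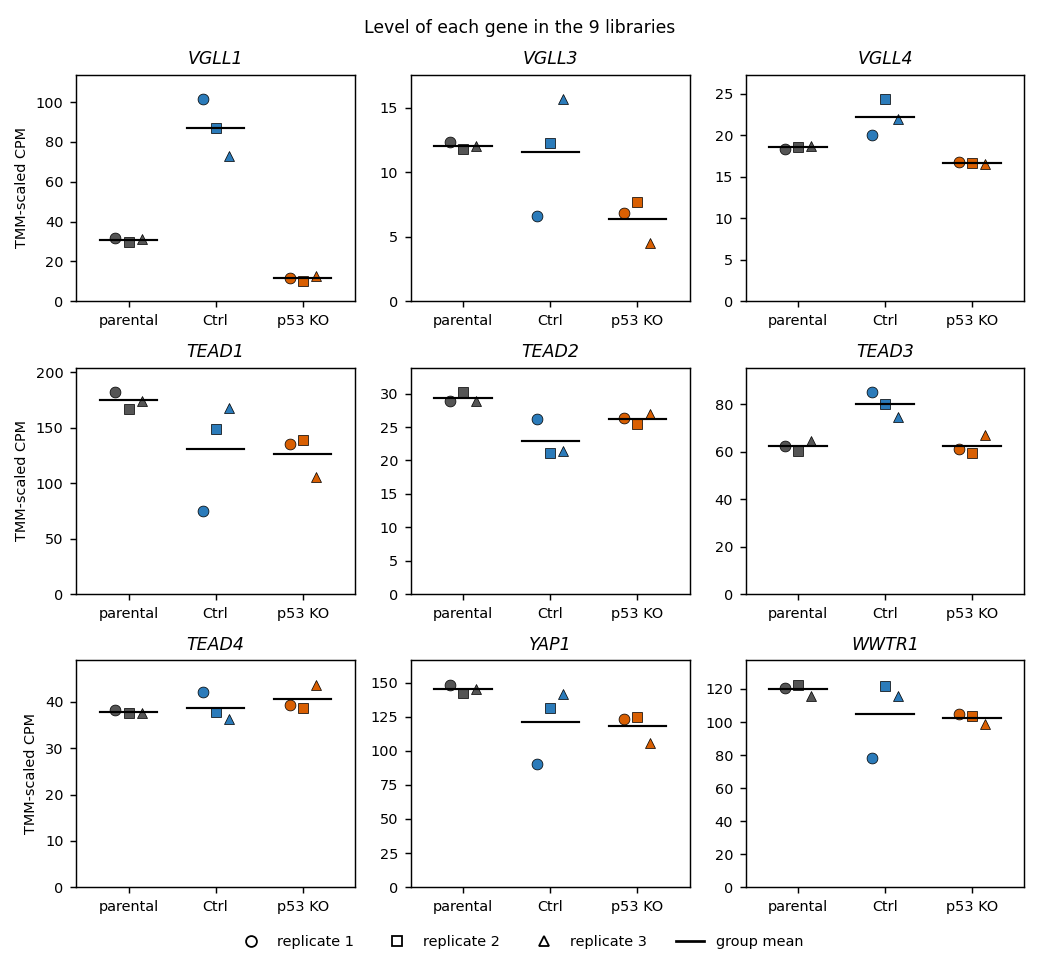
TMM-scaled CPM (y axis, from 0) of the 9 genes in each library, by group, with symbols for the replicate number and a bar for the mean of 3 libraries. VGLL1 separates the 3 groups, from 10.0 to 12.8 CPM in p53 KO to 73.2 to 102 CPM in Ctrl, and Ctrl replicate 1 is the lowest Ctrl library for VGLL3, VGLL4, TEAD1, YAP1 and WWTR1.

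VGLL3, a paralog that binds TEADs as VGLL1 does, lies on chromosome 3 (86876388 to 86991149, minus strand). It had 12.3, 11.8 and 12.0 CPM in parental, 6.63, 12.3 and 15.7 CPM in Ctrl and 6.84, 7.68 and 4.51 CPM in p53 KO libraries. All p53 KO libraries were below the parental ones, but Ctrl replicate 1 lay among them. The share of all genes with p53 KO libraries all below the parental ones was not counted. VGLL3 fell by 0.91 on the log2 scale against parental cells (SE 0.27, edgeR adjusted p = 0.0359) and by 0.86 against Ctrl cells (SE 0.27, edgeR adjusted p = 0.0305). Without the 2 libraries it fell by 0.74 and 0.95, with edgeR adjusted p = 0.000356 and 4.89e-05. Ctrl and parental cells differed by -0.05 (95% interval -0.60 to 0.51, edgeR adjusted p = 0.899). Several single libraries decided these calls: the adjusted p against parental cells rose above 0.05 on leaving out any 1 of the parental or p53 KO libraries or Ctrl replicate 2, and the log2 fold change then ranged from -1.07 to -0.73. Against Ctrl cells it rose above 0.05 without parental replicate 3, p53 KO replicate 1 or 3, or Ctrl replicate 2 or 3 (-0.92 to -0.59), and with only the 2 groups in the fit (-0.87, edgeR adjusted p = 0.0756).
VGLL4, the repressor in the family, is on chromosome 3 (11556069 to 11771350, minus strand). Its levels were 18.4, 18.6 and 18.7 CPM in parental, 20.04, 24.4 and 22.0 CPM in Ctrl and 16.7, 16.7 and 16.6 CPM in p53 KO libraries. The p53 KO libraries were below all others by a small step. Against Ctrl cells VGLL4 fell by 0.41 (SE 0.09, edgeR adjusted p = 0.00434), and against parental cells the log2 fold change was -0.15 (95% interval -0.35 to 0.04, edgeR adjusted p = 0.255). The values were -0.48 and -0.15 without the 2 libraries (edgeR adjusted p = 0.000378 and 0.147). Ctrl and parental cells differed by 0.26 (edgeR adjusted p = 0.0567), and by 0.32 without the 2 libraries (edgeR adjusted p = 0.00517). The gene ATG7 on the opposite strand covers 22.2% of the annotated exon bases of VGLL4. The library kit keeps strand, but the strand setting of the counting is not given, so reads of the pair may be mixed.

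Among the TEADs, which set where the complex binds, TEAD1 had the most counts. It had 182, 167 and 174 CPM in parental, 74.8, 149 and 168 CPM in Ctrl and 135, 139 and 105 CPM in p53 KO libraries, and the low values in Ctrl and p53 KO were those of the 2 libraries that stood apart. With all 9 libraries and the filter on low counts TEAD1 passed no comparison, at -0.47 against parental (95% interval -0.98 to 0.04), -0.05 against Ctrl cells (95% interval -0.56 to 0.46) and -0.42 between Ctrl and parental cells (edgeR adjusted p = 0.205). With every gene of at least 1 count kept in the fit, p53 KO and Ctrl cells both passed against parental cells (-0.46 and -0.42, edgeR adjusted p = 0.000329 and 0.00133). With only the p53 KO and parental groups in the fit, and all their libraries kept, TEAD1 also passed (-0.46, edgeR adjusted p = 0.00126). In that fit the calls over all genes rose from 2631 to 4852. Without the 2 libraries TEAD1 fell by 0.35 against parental cells (edgeR adjusted p = 0.000569) and by 0.21 against Ctrl cells (edgeR adjusted p = 0.0214), and Ctrl and parental cells differed by -0.14 (edgeR adjusted p = 0.0875). With the trend over length and GC removed from all 9 libraries, the values were -0.37 and -0.09 (edgeR adjusted p = 0.103 and 0.701).
TEAD3 had 62.4, 60.2 and 64.4 CPM in parental, 85.2, 80.2 and 74.5 CPM in Ctrl and 61.0, 59.6 and 67.1 CPM in p53 KO libraries. The Ctrl libraries were above all others, while parental and p53 KO libraries overlapped. The share of all genes with Ctrl above all others was not counted. TEAD3 rose by 0.36 from parental to Ctrl cells (SE 0.08, edgeR adjusted p = 0.010) and was lower by 0.35 in p53 KO than in Ctrl cells (log2 fold change -0.35, SE 0.08, edgeR adjusted p = 0.00585). These were 0.31 and -0.36 without the 2 libraries (edgeR adjusted p = 0.00112 and 0.000389), and without parental replicate 2 the first was 0.34 and lost its call (edgeR adjusted p = 0.0524). Against parental cells p53 KO differed by 0.01 (95% interval -0.17 to 0.18, edgeR adjusted p = 0.970), and by -0.05 without the 2 libraries.
TEAD2 moved the other way in Ctrl cells, with 28.9, 30.3 and 28.9 CPM in parental, 26.2, 21.2 and 21.4 CPM in Ctrl and 26.3, 25.5 and 27.0 CPM in p53 KO libraries. It fell by 0.36 from parental to Ctrl cells (SE 0.09, edgeR adjusted p = 0.0224), and by 0.47 without the 2 libraries (edgeR adjusted p = 0.000198). That call was lost on leaving out any 1 parental library or Ctrl replicate 2 (log2 fold changes of -0.37 to -0.30), with a block for the replicate number (edgeR adjusted p = 0.0562) and with only the 2 groups in the fit (edgeR adjusted p = 0.0598). In p53 KO cells TEAD2 differed by -0.16 from parental and by 0.20 from Ctrl cells, and neither passed with all 9 libraries. Both passed without the 2 libraries (-0.18 and 0.28, edgeR adjusted p = 0.0446 and 0.00676) and with the trend over length and GC removed (-0.24 and 0.29, edgeR adjusted p = 0.0157 and 0.00382).
TEAD4 had 37.6 to 38.3 CPM in parental, 36.3 to 42.2 CPM in Ctrl and 38.7 to 43.7 CPM in p53 KO libraries, so that p53 KO lay just above parental cells and Ctrl overlapped with both. The share of all genes with p53 KO libraries all above the parental ones was not counted. It passed no comparison with or without the 2 libraries, and passed against Ctrl cells only with the length and GC trend removed (log2 fold change 0.16, edgeR adjusted p = 0.0467). Its 95% intervals with all libraries were -0.08 to 0.28 against parental cells, -0.12 to 0.25 against Ctrl cells and -0.15 to 0.22 between Ctrl and parental cells.

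The coactivators differed little beside VGLL1. YAP1 (chromosome 11, 102110447 to 102233424, plus strand) had 148, 142 and 145 CPM in parental, 90.0, 131 and 142 CPM in Ctrl and 124, 125 and 105 CPM in p53 KO libraries. All p53 KO libraries were below the parental ones, and Ctrl replicate 1 was below all others. How many of all genes have p53 KO below parental libraries in this way was not counted, here or for WWTR1. YAP1 in p53 KO cells differed by -0.30 from parental (95% interval -0.61 to 0.01, edgeR adjusted p = 0.171) and by -0.04 from Ctrl cells (95% interval -0.35 to 0.27). Without the 2 libraries it was -0.23 (edgeR adjusted p = 0.00376) and -0.14 (edgeR adjusted p = 0.0668). Ctrl and parental cells differed by -0.26 with all libraries and by -0.09 without the 2 (edgeR adjusted p = 0.193 and 0.192). With every gene of at least 1 count kept, YAP1 passed against parental cells in p53 KO and, narrowly, in Ctrl cells (-0.30 and -0.27, edgeR adjusted p = 0.0271 and 0.0499). It also passed with only the p53 KO and parental groups in the fit (-0.30, edgeR adjusted p = 0.00423).
WWTR1 (chromosome 3, 149517235 to 149736714, minus strand) had 121, 123 and 116 CPM in parental, 78.0, 122 and 116 CPM in Ctrl and 105, 104 and 98.9 CPM in p53 KO libraries. The p53 KO libraries again lay below the parental ones and above Ctrl replicate 1. WWTR1 in p53 KO cells differed by -0.22 from parental (edgeR adjusted p = 0.281) and by -0.04 from Ctrl cells (edgeR adjusted p = 0.865), and by -0.20 and -0.19 without the 2 libraries (edgeR adjusted p = 0.00761 and 0.0158). With only the p53 KO and parental groups in the fit, the first was -0.22 and passed (edgeR adjusted p = 0.00822). Ctrl and parental cells differed by -0.19 with all libraries and by -0.02 without the 2 (edgeR adjusted p = 0.324 and 0.846). With the trend over length and GC removed from all libraries, neither YAP1 nor WWTR1 passed any comparison.

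**Figure D3:**
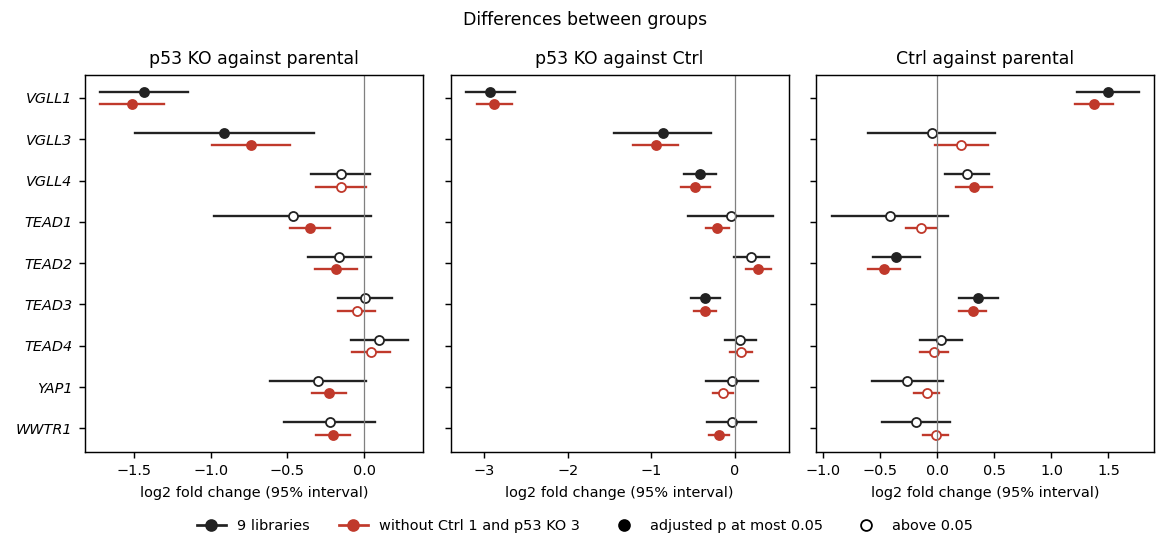
Log2 fold change (x axis) with its 95% interval for the 9 genes in the 3 comparisons, with all 9 libraries (black) and without Ctrl replicate 1 and p53 KO replicate 3 (red), filled where the adjusted p was at most 0.05. VGLL1 lies apart at -1.43, -2.93 and 1.497, and the intervals of TEAD1, YAP1 and WWTR1 narrow without the 2 libraries.

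Counted over the members, 2 of 9 passed the test (adjusted p at most 0.05) in p53 KO against parental cells, both lower. Of all genes tested 18.1% passed there (8.36% of all genes lower and 9.77% higher). Against Ctrl cells 4 of 9 passed, all lower, against 29.2% of all genes (14.2% lower and 15% higher). Between Ctrl and parental cells 3 of 9 passed, 1 lower and 2 higher, against 20.3% of all genes (9.69% lower and 10.6% higher). These counts are small, the first is near its background, and whether the others exceed theirs was not tested. Without the 2 libraries 6, 7 and 4 members passed, against 31%, 38.3% and 28.8% of all genes. With all 9 libraries, a log2 fold change past 1.5 in size was reached by VGLL1 alone, against Ctrl cells, where 3.29% of all genes tested reached it. That size was reached by 1.95% of all genes against parental cells and by 1.94% between Ctrl and parental cells. VGLL1 stood at -1.43 and 1.497 there. VGLL1 and VGLL3 passed as lower in p53 KO cells against both mutp53 groups, as 5.25% of all genes did, in comparisons that share the p53 KO libraries. VGLL1 and VGLL4 had all 3 p53 KO libraries below the 6 others, as 10.1% of all genes had. The median log2 fold change of the members was -0.22, -0.05 and -0.05 in the 3 comparisons, where that of all genes was 0.01, 0.01 and 0.00.

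Levels of different genes were compared as CPM per kilobase of annotated exon. VGLL1 changed its rank among the members from group to group. In parental cells YAP1 came first (23.0 ± 0.50, SD, n = 3), then VGLL1 (20.9 ± 0.83) and TEAD3 (20.4 ± 0.69), of which VGLL1 and TEAD3 overlapped. TEAD4 (16.6 ± 0.16) and TEAD1 (16.3 ± 0.70) overlapped below them, followed by WWTR1 (14.3 ± 0.40), TEAD2 (9.85 ± 0.27), VGLL4 (2.58 ± 0.03) and VGLL3 (0.95 ± 0.02).
In Ctrl cells VGLL1 came first at 59.0 ± 9.65, above TEAD3 (26.2 ± 1.75), and no library of the 2 genes overlapped. YAP1 (19.2 ± 4.33) and TEAD4 (17.1 ± 1.354) overlapped, as did WWTR1 (12.6 ± 2.83) with TEAD1 (12.2 ± 4.60) and TEAD1 with TEAD2 (7.69 ± 0.95). In p53 KO cells VGLL1 was seventh of 9 at 7.76 ± 0.92, overlapping with TEAD2 (8.81 ± 0.25), and TEAD3 (20.5 ± 1.31), YAP1 (18.7 ± 1.70) and TEAD4 (17.8 ± 1.198) overlapped at the top. WWTR1 (12.3 ± 0.37) overlapped with TEAD1 (11.8 ± 1.73). VGLL4 and VGLL3 were eighth and ninth in all 3 groups. Poly(A) reads do not cover every annotated exon evenly, and the order depends on the length used. Per kilobase of the longest transcript, WWTR1 moved above TEAD4 and TEAD3 in parental cells (23.8 ± 0.67), VGLL1 (27.0 ± 1.08) and YAP1 (26.9 ± 0.58) overlapped at the top there, and TEAD4 (23.7 ± 1.59) came first in p53 KO cells. The levels of WWTR1 and VGLL4 moved by over 1.5 times, VGLL4 to 4.92 ± 0.049 in parental cells. VGLL1 was first in Ctrl and seventh in p53 KO cells with either length.
The level of VGLL1 relative to the summed level of YAP1 and WWTR1 reached 0.559 ± 0.019 for parental, 1.98 ± 0.82 for Ctrl and 0.253 ± 0.046 for p53 KO cells (SD, n = 3). The 3 groups did not overlap, from 0.537 to 0.572 (parental), 1.36 to 2.91 (Ctrl) and 0.211 to 0.302 (p53 KO). The highest Ctrl value was that of replicate 1, and without it the Ctrl mean was 1.51. RNA ratios do not give the amounts of protein that meet at TEADs. WWTR1 stood to YAP1 at 0.623 ± 0.025, 0.657 ± 0.042 and 0.659 ± 0.043, and these ranges overlapped between all 3 groups.
The summed TEAD level came to 63.3 ± 1.04 CPM per kilobase (parental), 63.2 ± 0.84 (Ctrl) and 59.0 ± 1.03 (p53 KO). It was lower in p53 KO cells than in every library of the other groups, by 4.27 and 4.18. With exon length TEAD3 held the largest share in each group, 32.3% ± 0.75 for parental, 41.5% ± 3.13 for Ctrl and 34.8% ± 1.61 for p53 KO cells. With the longest transcript TEAD4 exceeded it in parental (30.1% against 28.4%) and p53 KO cells (34.4% against 30.4%). TEAD1 held 25.8% ± 0.74, 19.3% ± 7.13 and 20.1% ± 3.24, and its lowest shares were 11.2% in Ctrl replicate 1 and 16.4% in p53 KO replicate 3. TEAD4 held 26.3% ± 0.31, 27.0% ± 2.45 and 30.2% ± 1.503, and TEAD2 15.6% ± 0.68, 12.2% ± 1.67 and 14.9% ± 0.19.
Each of these 8 quantities was compared between the 3 pairs of groups by a two-sided exact permutation test. With 3 libraries against 3 the smallest p is 0.1, which became 0.15 after Benjamini-Hochberg adjustment over the 24 tests, so none can pass 0.05.

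**Figure D4:**
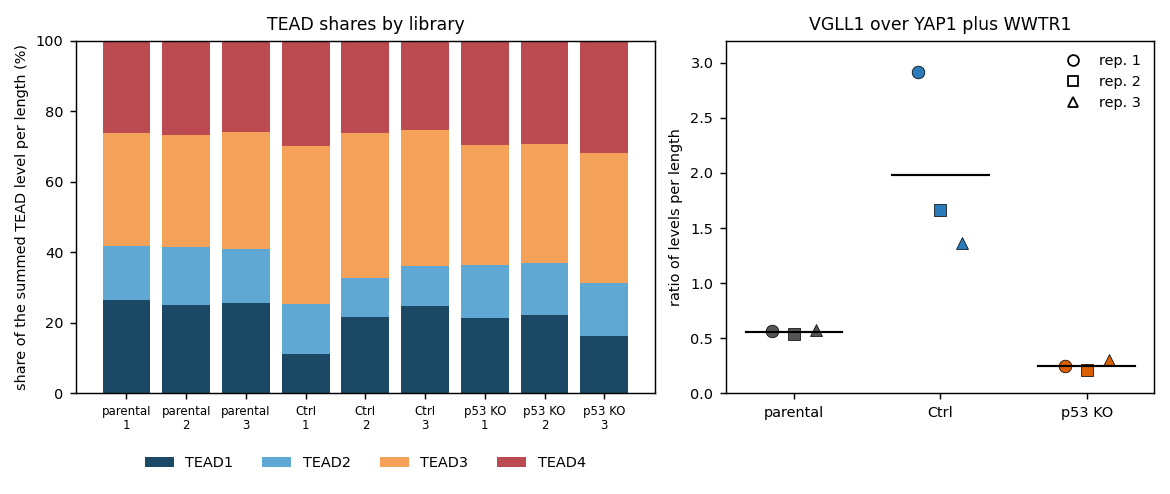
Left, share of each TEAD in the summed TEAD level per length (y axis, %) in the 9 libraries. Right, ratio of the VGLL1 level to the summed YAP1 and WWTR1 level, per library with the group mean as a bar. The TEAD1 share is smallest in Ctrl replicate 1 (11.2%) and p53 KO replicate 3 (16.4%), and the ratio is 1.36 to 2.91 in Ctrl against 0.211 to 0.302 in p53 KO libraries.

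The Hippo pathway genes lie upstream of YAP and TAZ, and 24 of the 26 listed were tested (DCHS1 and DCHS2 had too few counts). In p53 KO against parental cells 6 were lower and 1 was higher, with a median log2 fold change of -0.19. Against Ctrl cells 4 were lower and 4 higher, with a median of -0.01, and between Ctrl and parental cells 4 passed, all lower, with a median of -0.24. The 7, 8 and 4 of 24 that passed stood against 18.1%, 29.2% and 20.3% of all genes tested.
The angiomotins, scaffold proteins that hold YAP at cell junctions, moved in unlike ways. AMOTL2 had 189 to 205 CPM in parental, 195 to 239 CPM in Ctrl and 107 to 117 CPM in p53 KO libraries, and fell by 0.78 and 0.97 (SE 0.09 and 0.09, edgeR adjusted p = 0.000169 and 1.54e-05). AMOTL1 had 133 to 155, 120 to 163 and 72.3 to 89.0 CPM, and fell by 0.80 and 0.85 (SE 0.12 and 0.12, edgeR adjusted p = 0.0012 and 0.000395). The p53 KO libraries were below all others for both genes. AMOT was near the limit of counting, with 4 to 11 counts per library in parental, 0 to 3 in Ctrl and 16 to 33 in p53 KO cells, and its level in p53 KO cells was at least 7.24-fold higher than that of Ctrl cells, against a floor of 3 counts per library.
FAT4, an atypical cadherin upstream of the pathway, also had few counts, 6 to 11 in parental, 8 to 24 in Ctrl and 0 to 2 in p53 KO libraries. On the same floor its level in p53 KO cells was at least 2.98-fold lower than the parental level and at least 5.76-fold lower than the Ctrl level. FAT1, the abundant member of that family, had 27.3 to 33.8 CPM in p53 KO libraries, within the parental range of 21.0 to 41.1.

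Of 22 listed YAP/TAZ-TEAD target genes, 18 were tested. In p53 KO against parental cells 8 were lower and 1 higher, with a median log2 fold change of -0.44. Against Ctrl cells 4 were lower and 4 higher, with a median of 0.00, and between Ctrl and parental cells 8 were lower and 2 higher, with a median of -0.34. Of all genes tested 18.1%, 29.2% and 20.3% passed. The first and the last of these comparisons share the parental libraries. CYR61, a matricellular target chosen here after its values were seen, had 117 to 144 CPM in parental, 68.6 to 73.8 CPM in Ctrl and 57.9 to 78.9 CPM in p53 KO libraries. Its log2 fold changes were -0.89 in p53 KO and -0.83 in Ctrl cells against parental cells (edgeR adjusted p = 0.000455 and 0.000804) and -0.06 between p53 KO and Ctrl cells (95% interval -0.32 to 0.20), and were -1.01, -0.84 and -0.17 without the 2 libraries. The related target CTGF, chosen likewise, had 0 or 1 count per library and ANKRD1 0 to 10, so neither was tested. A count of 0 allows up to 3 counts.
The targets that passed in the same direction against both mutp53 groups were AMOTL2, GADD45A, CCDC80 and TGFB2. AXL, a receptor tyrosine kinase named after its values were seen, passed in opposite directions, lower than parental (log2 fold change -0.46, edgeR adjusted p = 0.00392) and higher than Ctrl cells (0.26, edgeR adjusted p = 0.0477), and the second was 0.17 without the 2 libraries (edgeR adjusted p = 0.108). GADD45A, a stress gene that p53 also regulates, had 20.9 to 27.8, 16.5 to 19.6 and 10.7 to 13.3 CPM in parental, Ctrl and p53 KO libraries. It fell by 1.02 and 0.60 (SE 0.13 and 0.13, edgeR adjusted p = 0.00034 and 0.00428). CCDC80, a secreted matrix protein, had 53.7 to 56.3, 118 to 128 and 35.7 to 41.9 CPM, in the order of VGLL1. Its log2 fold changes were -0.48, -1.63 and, between Ctrl and parental cells, 1.15 (edgeR adjusted p = 0.00189, 2.34e-07 and 7.56e-06). TGFB2, a growth factor, went the opposite way, with 2.87 to 3.23, 0.10 to 0.76 and 5.84 to 7.49 CPM and log2 fold changes of 1.11, 3.78 and -2.67 (edgeR adjusted p = 0.00496, 6.35e-06 and 0.000309). Over all genes tested, 6.46% passed as higher than both mutp53 groups, as TGFB2 and AMOT did, and 11.9% had all 3 p53 KO libraries above the 6 others.
Without the 2 libraries 14 of the 18 targets passed against parental cells (11 lower), 10 against Ctrl cells (7 lower) and 13 between Ctrl and parental cells (10 lower), with medians of -0.42, -0.13 and -0.22. Of all genes tested 31%, 38.3% and 28.8% passed then. The calls and directions of AMOTL1, AMOTL2, GADD45A, CCDC80 and TGFB2 in p53 KO cells held against both groups without the 2 libraries, at -0.72 and -0.90, -0.81 and -1.07, -1.11 and -0.68, -0.41 and -1.59, and 1.11 and 3.41.

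**Figure D5:**
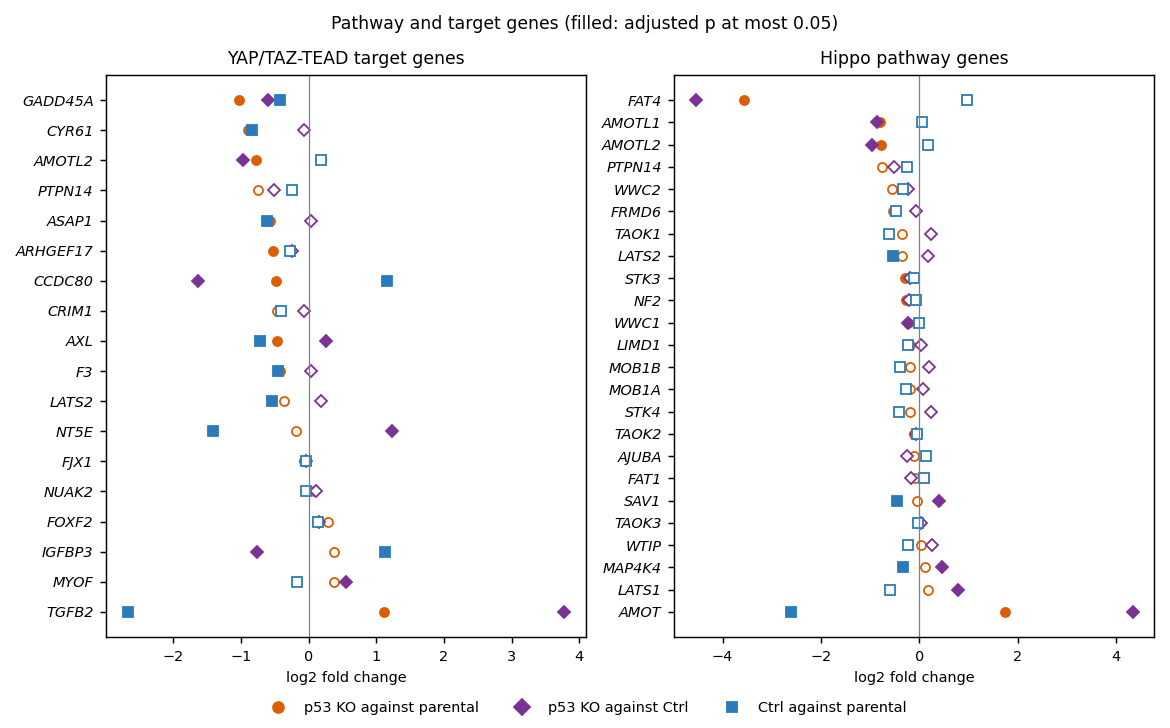
Log2 fold change (x axis) of the 18 targets (left) and 24 Hippo pathway genes (right) tested, for p53 KO against parental (circles), p53 KO against Ctrl (diamonds) and Ctrl against parental (squares), filled where the adjusted p was at most 0.05. For the targets the circles have a median of -0.44 and the diamonds one of 0.00. Among the diamonds TGFB2 (3.78) and CCDC80 (-1.63) lie far from 0 in opposite directions.

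The AP-1 factors bind many of the same enhancers as TEADs, and all 7 listed genes were tested. Against parental cells edgeR called 0 of 7 in p53 KO cells, with 2 at an unadjusted p under 0.05 and 1 called by DESeq2. Against Ctrl cells 4 of 7 passed, 2 higher and 2 lower. Of all genes tested, 18.1% passed against parental and 29.2% against Ctrl cells. JUN (0.75, edgeR adjusted p = 0.000187) and FOSL1 (0.38, edgeR adjusted p = 0.0084) were higher, and FOS (-0.33, edgeR adjusted p = 0.0438) and JUNB (-0.38, edgeR adjusted p = 0.0154) were lower. FOS lost its call without the 2 libraries (-0.25, edgeR adjusted p = 0.133), and the other 3 passed. Those 4 are named because of the count and not by a rule. Between Ctrl and parental cells JUN and FOSL1 were lower (-1.05 and -0.57) and JUNB was higher (0.64), where 20.3% of all genes tested passed. RNA of these 3 AP-1 genes thus differed between the 2 mutp53 groups as well. The gene HOOK2 on the opposite strand covers 14.2% of the annotated exon bases of JUNB and had 1246 to 2025 counts per library. The strand setting of the counting is not given, so reads of JUNB and HOOK2 may be mixed.

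The genes near each member were examined within 5 Mb on either side. The 27 genes tested around WWTR1 had a median log2 fold change of -0.39 in p53 KO against parental cells, and 16 of them passed, all lower. Against Ctrl cells the median was -0.67 with 21 passing, all lower, and between Ctrl and parental cells it was 0.07. Of all genes tested, 8.36% passed as lower against parental cells and 14.2% against Ctrl cells. WWTR1 itself stood at -0.22 and -0.04, nearer to 0 than the median of its neighbours. Their part in its value was not tested. Around VGLL1 the 28 genes tested had medians of -0.07, 0.13 and -0.17, far from the -1.43, -2.93 and 1.497 of VGLL1 itself. The medians around the other 7 members lay between -0.20 and 0.29 in the 3 comparisons.

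By the root mean square difference of gene-centred log2 CPM over the 9 libraries, the pattern most like that of VGLL1 was that of CALML3, a calmodulin-like gene of squamous epithelium on chromosome 10, with a difference of 0.14. Its mean levels were 41.4, 108 and 17.5 CPM in parental, Ctrl and p53 KO cells, and its log2 fold changes were -1.25, -2.63 and 1.38. KIAA0125, ZDHHC1, TMEM139 and MANSC1 followed at 0.29 to 0.31, all below 10 CPM in every group mean. KIAA0125 was close to zero, at 0.21, 0.62 and 0.01 CPM.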

How the data were processed

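Poly(A) RNA was sequenced from 9 libraries of A431 cells, 3 per group. According to the methods and the submitters' processing notes, the authors aligned paired-end reads with STAR 2.5.1b to GRCh38 and counted them per gene with featureCounts (Ensembl release 85), and they deposited whole-number counts per gene without normalization. The strand setting of the counting is not given. All 9 columns were mapped by name. The table lists 58051 genes, 30587 without a count. Low counts were removed with filterByExpr (minimum count 10), libraries were scaled by TMM, and 1 model over the 9 libraries gave each comparison by the quasi-likelihood test of edgeR 4.0.16 in R 4.3.3 with Benjamini-Hochberg adjustment over 14513 genes. Standard errors follow from the F statistic. The model was tested on simulated data. Per-length levels used the union of exons in GENCODE release 44, promoters came from RefSeq, exact permutation tests from scipy 1.17.1 and figures from matplotlib 3.10.9. The 95% intervals of fold changes come from the fit and include the spread between libraries, and floors cover counting error only.

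Named genes were the 9 members and genes of the Hippo, target and AP-1 lists that passed in the same direction against both mutp53 groups or passed at a log2 fold change past 1.5, up to 10 a list. The 5 genes nearest to VGLL1 were also named, and another result that the rule covers is not reported here. The members and lists were chosen with earlier results of these data known. Alternatives were DESeq2 1.42.0, its size factors, 2 other filters, a replicate block, only the 2 groups compared, each library left out, the longest transcript as length and a window of 2 Mb. Leaving out 2 libraries together and removing a loess trend over length and GC were added after seeing the data.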

Additional observations from a re-analysis of the deposited data

Results flagged for a closer look

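The 9 members and the other genes named by rule, 16 in all, were examined for opposite differences of p53 KO and Ctrl cells from parental cells that passed the edgeR test in both, with a test of p53 KO against Ctrl cells. Of these, 4 met it. The genes other than the members had been named for their fold changes in these same comparisons, so meeting it is no separate support for them. The share of all genes tested that meet it was not counted. VGLL1 was lower in p53 KO and higher in Ctrl cells, and p53 KO and Ctrl cells differed by -2.93 on the log2 scale (edgeR adjusted p = 1.32e-07). CCDC80 had the same order, with a difference of -1.63 (edgeR adjusted p = 2.34e-07). TGFB2 was higher in p53 KO and lower in Ctrl cells and differed by 3.78 (edgeR adjusted p = 6.35e-06). AMOT did so too, at a fitted 4.34 (edgeR adjusted p = 0.0004), but from 0 to 33 counts per library, and its difference between Ctrl and parental cells passed narrowly (edgeR adjusted p = 0.0449). Both comparisons with parental cells share the parental libraries.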

How the results depend on the processing

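VGLL1 kept its direction and passed under each alternative in all 3 comparisons, with log2 fold changes of -1.51 to -1.34, -3.05 to -2.81 and 1.37 to 1.61 on leaving out single libraries. Of 858 alternative values of single genes, 761 kept direction and call, 42 lost and 32 gained the call, and 23 changed sign. The cause of these changes was not tested unless named.

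Deviations of same-numbered libraries from their group means correlated at -0.35 to 0.04. The libraries that stood apart, Ctrl replicate 1 and p53 KO replicate 3, carry different numbers. These correlations therefore cannot settle whether the numbers pair the libraries. With the replicate block the members passing against parental cells went from 2 to 1, VGLL3 lost its call against both groups (-0.91 and -0.83), and TEAD2 lost its call between Ctrl and parental cells (-0.36). Over all genes the block moved the calls from 2631 to 1757 against parental cells and from 2943 to 1691 between Ctrl and parental cells.

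The number of Hippo pathway genes passing against parental cells went from 7 to 11 with no filter, 4 with the block, 13 with only the 2 groups compared and 12 with both libraries left out. Against Ctrl cells it went from 8 to 13 with both left out. Between Ctrl and parental cells it went from 4 to 7 with DESeq2, 11 with no filter, 2 with at least 10 counts, 1 with the block, 2 with only the 2 groups, 9 with both left out and 8 with the trend removed. The targets passing against parental cells went from 9 to 15 with no filter, 15 with only the 2 groups and 14 with both left out. The AP-1 genes passing there went from 0 to 1 with DESeq2, 2 with only the 2 groups, 3 with both left out and 2 with the trend removed. The members passing went from 2 to 4 with no filter, 5 with only the 2 groups and 6 with both left out, against Ctrl cells from 4 to 7 with both left out, and between Ctrl and parental cells from 3 to 5 with no filter. The calls over all genes also rose against parental cells, from 2631 to 3370 with no filter, 4852 with only the 2 groups and 4498 with both left out.

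TEAD3 against parental cells turned from 0.01 to -0.0016 with DESeq2, -0.0011 with its size factors, -0.049 with both libraries left out and -0.074 with the trend removed. TEAD4 turned to -0.0044 there with the trend removed, and between Ctrl and parental cells to -0.032 with both left out and -0.17 with the trend removed. VGLL3 turned between Ctrl and parental cells to 0.21 with both left out and 0.16 with the trend removed.

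Leaving out single libraries gave 1 to 5 members against parental cells, 3 to 8 against Ctrl cells and 1 to 4 between Ctrl and parental cells, with the highest count each time without Ctrl replicate 1. Past 1.5 it gave 0 to 1 member against parental cells (VGLL1 at -1.51 without p53 KO replicate 3) and 0 to 1 between Ctrl and parental cells (VGLL1, up to 1.61 without Ctrl replicate 3). It gave 3 to 13, 6 to 14 and 1 to 9 Hippo pathway genes, 7 to 15 targets against parental cells and 6 to 11 between Ctrl and parental cells, and 0 to 2 AP-1 genes against parental and 2 to 4 against Ctrl cells. Ranges that crossed 0 were -0.047 to 0.039 for TEAD3 against parental cells, -0.33 to 0.17 for TEAD1, -0.22 to 0.085 for YAP1 and -0.22 to 0.075 for WWTR1 against Ctrl cells, and -0.32 to 0.21 for VGLL3, -0.031 to 0.081 for TEAD4 and -0.025 to 0.18 for AMOTL1 between Ctrl and parental cells.

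With the longest transcript as length, the TEAD2 share was 16.4% in parental and 15.6% in p53 KO cells, the TEAD3 share 28.4%, 36.8% and 30.4% and the TEAD4 share 30.1%, 31.2% and 34.4% in parental, Ctrl and p53 KO cells. WWTR1 to YAP1 became 0.884, 0.933 and 0.936, and VGLL1 to YAP1 plus WWTR1 0.532 in parental cells. Within 2 Mb, the neighbours of VGLL4 had medians of 0.032, -0.014 and 0.076, those of TEAD1 -0.092 and 0.20 in p53 KO cells, and those of TEAD4 -0.058 between Ctrl and parental cells.

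Only 3 libraries per group limit these tests, and genes near the floor of 3 counts (AMOT, FAT4) have uncertain sizes.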

Other observations

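Of 7 keratinocyte markers, 6 had enough counts to be tested. KRT6A, a keratin of activated keratinocytes, had 13.3 to 15.3 CPM in parental, 9.80 to 11.2 CPM in Ctrl and 68.3 to 77.7 CPM in p53 KO libraries, and was named after its values were seen. Its log2 fold changes were 2.35 against parental cells and 2.75 against Ctrl cells (edgeR adjusted p = 2.14e-07 and 2.39e-08). TP63, the master factor of basal keratinocytes, passed no comparison, at 0.13, 0.21 and -0.07. Over the 6 markers tested, 3 passed against parental cells (1 lower), 3 against Ctrl cells (1 lower) and 4 between Ctrl and parental cells (3 lower). Of all genes tested 18.1%, 29.2% and 20.3% passed. Against parental cells the lower marker was CDH1 (-0.32, edgeR adjusted p = 0.0245), and KRT5 was higher beside KRT6A (0.43, edgeR adjusted p = 0.00387). Of 7 markers of fibroblasts, endothelium and leukocytes, COL1A1 (47 to 114 counts per library) and PECAM1 (1 to 13 counts) were tested. PECAM1 was higher in Ctrl than in parental cells (log2 fold change 1.68, edgeR adjusted p = 0.025), and neither passed in p53 KO cells.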
